A study of Microtus ochrogaster with 46 samples.

Results

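The 100 genes described here differed most between prairie voles that had been treated alike. RNA was sequenced from tissue punches of the nucleus accumbens, 1 library per animal, in 46 prairie voles (Microtus ochrogaster), 29 females and 17 males. Naive animals (10 females, 6 males) had been housed for 3 weeks with a same-sex littermate, and the others with an opposite-sex partner for 24 h (10 females, 6 males) or for 3 weeks (9 females, 5 males). The sample titles give 9 females at 3 weeks where the series' design text gives 6, and the titles were used here. All groups were thus pair-housed, no group carried a transgene or a drug, and the labels used here do not give the animals' age.

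The members were chosen by measured values. Of 17479 genes, 12296 had a mean normalized count of at least 50, and 9826 of these were eligible, having an absolute correlation under 0.4 with Avpr1a, the vasopressin V1a receptor gene, over the 46 libraries once group means were removed. 3 further genes had been left out by name. The 100 eligible genes with the highest standard deviation within groups, pooled over the 6 groups on the log2 scale, are the members, and 7 genes with an equal or higher spread were passed over for their correlation with Avpr1a. The spread and that correlation are therefore descriptions of the choice and were not tested.

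The prairie vole forms lasting bonds with a mate, and the nucleus accumbens is a part of the ventral striatum that takes in dopamine, glutamate, vasopressin and oxytocin signals and is known for its part in reward and in pair bonding. A punch of it holds several kinds of neuron together with astrocytes, oligodendrocytes, microglia and vessel cells. In such bulk tissue a lower level can mean fewer cells of a type or less RNA per cell, and these cannot be told apart. The rows are named by Ensembl identifiers, no symbol could be matched to any member, and so neither the members' functions nor the markers of the tissue can be given, and the labelled tissue was not checked against its markers.

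Levels are log2 of a normalized count plus 1, so a difference of 1 is close to a doubling where counts are high. The estimated depth was 15.3 to 38.3 M reads (M for mega) per library with a median of 29.3 M. The low values of 35 libraries shared 1 pattern of gene-specific normalization and those of 11 libraries another. The second pattern took in all naive and all 3 week males, so for those groups sex and normalization pattern cannot be told apart, whereas the 24 h males and all females belonged to the first. Between naive and 24 h males, pairing and normalization pattern cannot be told apart either. 3 females (24 h replicate 8, 3 week replicates 3 and 7) lay part of the way between the patterns.

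The members' spread was several times that of the genes around them. Their pooled SD ran from 3.74 down to 1.05 with a median of 1.41, against a median of 0.185 over the 9826 eligible genes, and 31 members exceeded 2. The boundary is not a natural break. The last members inside were ENSMOCG00000015992 at 1.048, ENSMOCG00000012558 at 1.046 and ENSMOCG00000015635 at 1.045, and the first genes outside were ENSMOCG00000007666 at 1.045, ENSMOCG00000006846 at 1.042 and ENSMOCG00000015051 at 1.042. The members' mean normalized counts ran from 50.1 to 2374 with a median of 151, lower than the eligible median of 684, and 36 members lay under 100 where 10.5% of eligible genes did. At the estimated read number of each member's median library, counting error alone would give a log2 SD with a median over members of 0.136 and at most 0.841. In libraries with fewer reads it is larger.

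The spread was of similar size in the 6 groups. The median SD over the members was 1.56 in naive females, 1.50 in 24 h females, 1.40 in 3 week females, 1.27 in naive males, 1.50 in 24 h males and 1.35 in 3 week males. Of the 100 members, 54 had a higher SD in females than in males, where 59.1% of eligible genes did, and the medians over members were 1.49 in either sex. In 10 members the SDs of the sexes differed by more than 2 times. The wide spread did not rest on a few libraries. Of the 46 libraries, 41 were the library farthest from its group mean for at least 1 member, and the mean absolute deviation over the members ran only from 0.960 to 1.52 per library. In the median member the farthest library held 12.6% of the sum of squares.

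The most common shape was a split of the animals into a low and a high set with few or none between. The 46 levels of each gene were sorted, and the widest gap that left at least 3 libraries on either side was measured. These limits were chosen after the data had been seen. The gap was at least 1 in 60 of the 100 members and at least 2 in 29, whereas among the 9726 other eligible genes it reached 1 in 4 (0.0411%) and 2 in none (0). A gap raises the SD by which the members were chosen, so this contrast describes the selection. The 40 members without such a gap had a pooled SD of 1.05 to 2.28 (median 1.21) and ran over a median of 5.00 log2 units from the lowest to the highest library. In the 29 members with a gap of at least 2, that distance was 8.22.

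**Figure D1:**
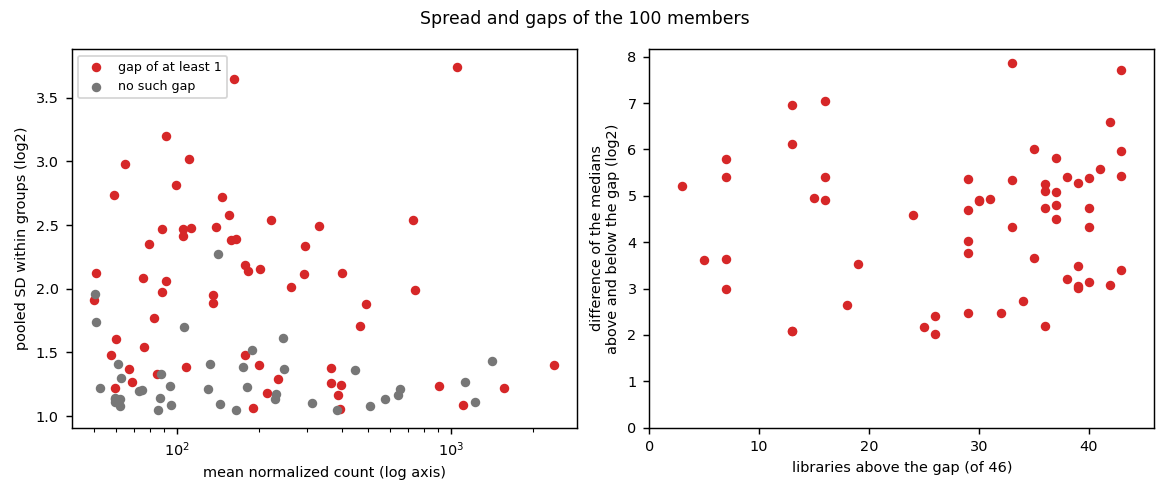
Spread and gaps of the 100 members. Left, pooled SD within groups (log2) against the mean normalized count (log axis), 1 point per member, red where the levels had a gap of at least 1; right, for the 60 members with such a gap, the difference of the medians above and below it (log2) against the number of libraries above it. Gapped members are found over the whole range of mean levels, from 50.1 to 2374, and either side could be the smaller one.

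Levels above a gap lay closer together than levels below it in most, not all, gapped members. The SD was lower above the gap in 22 of the 29 with a gap of at least 2 and in 43 of all 60. Low sides can hold few reads, where counting error widens log2 levels, and its part in this contrast was not tested. In ENSMOCG00000007048 the low side had a median of 0.992 and an SD of 1.19, against 0.215 above the gap. In ENSMOCG00000004642, with a low side at a median of 9.09, the SD was 0.232 below the gap and 0.347 above it. In the 29 members with a gap of at least 2, the medians of the sides lay 3.48 to 7.87 log2 units apart (median 5.28), the SD was 0.495 above the gap and 1.06 below it (medians over members), and 27 of the 29 had both sexes on both sides. Of the 60 members, 55 had both sexes on both sides and 22 had animals of all 6 groups on both. The low side was the smaller in 44 members and the high side in 16. The share of animals on the high side, males minus females, ran from -30.8 to 31.0 percentage points over the 60 members with a median of -1.01, and was higher in males in 30 and in females in 30. Each library was on the high side for 29 to 45 members.

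The gene with the widest spread, ENSMOCG00000010773 (pooled SD 3.74), was near 12 in 13 animals and far lower in the other 33. The lowest, median and highest levels were 5.13, 6.88 and 12.72 in naive females, 0, 6.20 and 11.83 in 24 h females and 0, 5.92 and 11.80 in 3 week females. They were 3.36, 5.25 and 11.63 in naive males and 0, 3.18 and 11.79 in 24 h males. The 3 week males stood at 4.20, 3.83, 3.53, 2.36 and 5.67. The high set, from 11.52 upward with a median of 11.74 and an SD of 0.298, held 4, 4 and 2 females and 1, 2 and 0 males in these groups. The highest level below the gap was 7.68, the median there was 4.79, and the gene was listed at 0 in 4 libraries.

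ENSMOCG00000004802 (pooled SD 3.65) was listed at 0 in 13 libraries and present in 33. Its median was 7.56, 7.61 and 6.53 in naive, 24 h and 3 week females, with the lowest library at 0 in each group and the highest at 8.88, 8.24 and 8.47. In males it ran from 0 over a median of 5.67 to 8.26 in naive animals and from 0 over 3.48 to 7.74 at 24 h, and the 3 week males stood at 5.77, 0, 9.00, 8.61 and 8.54. Every group thus held animals with the transcript listed at 0 and animals above 7. The 33 libraries with a value started at 4.72 and had a median of 7.87. Of all members, 32 were listed at 0 in at least 1 library, in 98 of the gene and library combinations and in 0 to 6 members per library, whereas 0 of the other 9726 eligible genes had such a library. At a mean of at least 50, a library at 0 by itself raises the SD by which the members were chosen. This contrast therefore describes the selection.

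ENSMOCG00000007048 (pooled SD 3.20) was low in most paired females. Its levels ran from 0 over a median of 5.56 to 8.36 in naive females, from 0 over 1.06 to 8.16 at 24 h and from 0 over 0 to 7.95 at 3 weeks. In naive males it ran from 0 over 4.65 to 8.12, in 24 h males from 1.01 over 5.20 to 8.12, and the 3 week males stood at 0, 7.59, 8.13, 3.60 and 8.21. The high set of 16 libraries (median 8.04, SD 0.215) held 5, 1 and 1 females and 3, 3 and 3 males, and all groups overlapped. ENSMOCG00000005050 (pooled SD 3.02) had its high set of 13 (median 8.52, SD 0.154) in 5 naive females, 5 24 h females and 1 female at 3 weeks, and in 1, 0 and 1 males.

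The next members had the same form with other animals in the high set. ENSMOCG00000008621 (2.98) was high, with a median of 7.41, in 16 libraries spread over all 6 groups as 4, 2, 3, 2, 3 and 2 and was listed at 0 in 6 others. ENSMOCG00000005132 (2.73) was high, with a median of 7.20, in 15 libraries of all groups. ENSMOCG00000019890 (2.82) had 7 high libraries (median 8.75) and a low side that trailed from 0 up to 6.84. ENSMOCG00000005976 (2.58) had 7 at a median of 9.79 (SD 0.142), none of them a naive or a 3 week male, and 39 libraries below 7 with a median of 4.38.

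**Figure D2:**
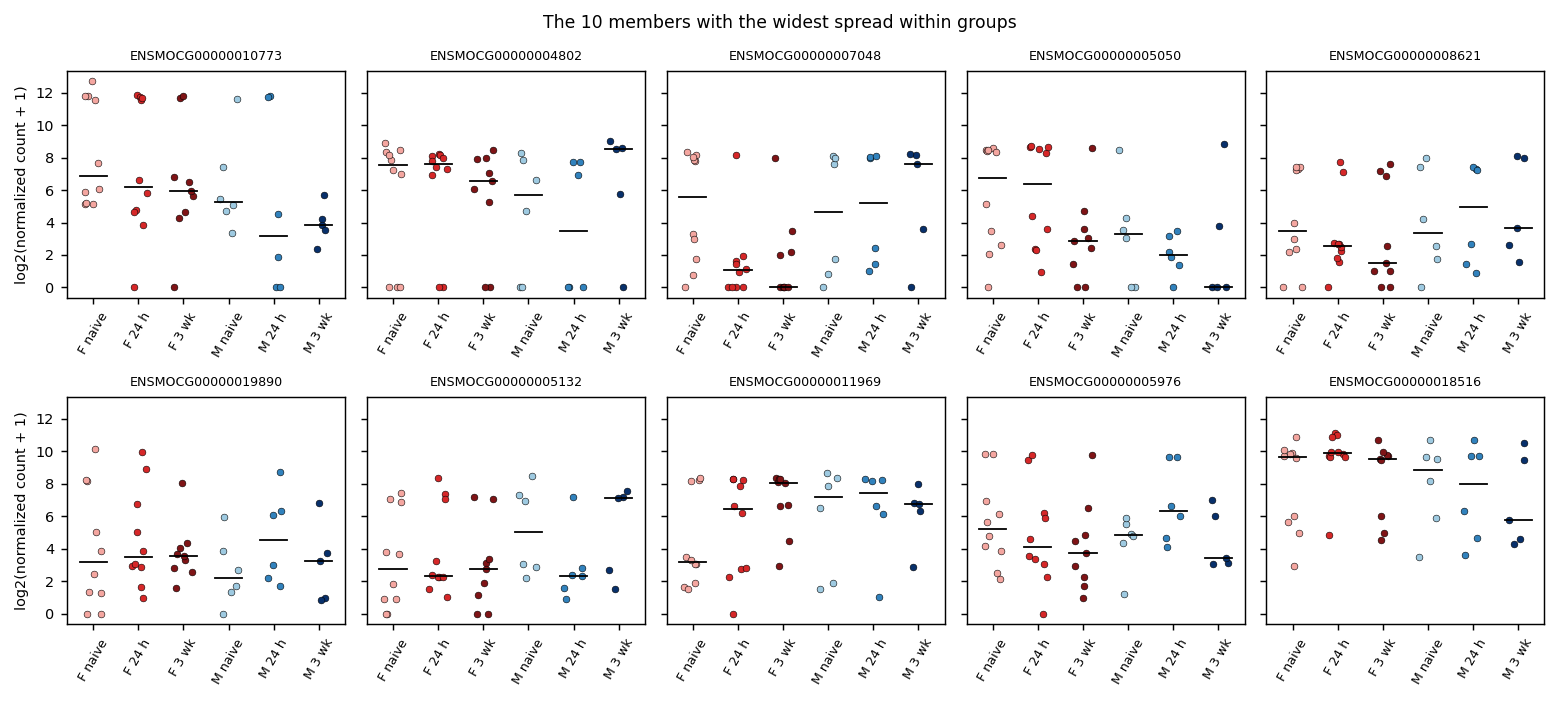
The 10 members with the widest spread within groups: each point is 1 library, by group (F female, M male; naive, 24 h, 3 wk), on the log2(normalized count + 1) axis, and bars are group medians. In most panels the points fall into a high and a low band, and both bands recur over most groups.

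In some members the levels above the gap were parted again. Among 58 members whose high side was large enough to look at, a second gap of at least 0.4 was found in 8, with medians 1.08 to 2.37 log2 units apart. This gap had to leave at least 3 libraries on either side, so a wider gap that sets off fewer libraries can lie within a band. The bands are therefore descriptions, and other genes were not searched for a second gap. ENSMOCG00000018516 (pooled SD 2.54) had 16 libraries at a median of 4.91, 22 at 9.72 and 8 at 10.79. Within the 22, naive male replicate 2 lay apart at 8.21, and the rest of them started at 9.45. ENSMOCG00000014098 had 10 at 1.45, 27 at 6.41 and 9 at 7.55. ENSMOCG00000011969 (2.72) had 17 at 2.75, 10 at 6.62 and 19 at 8.27, with SDs of 0.226 and 0.190 in the upper bands. ENSMOCG00000003643, the member with the highest mean level at 2374, had 12 libraries at 8.64, 22 at 11.27 and 12 at 12.11, although the upper gap of this gene was under the limit of 0.4. All 3 bands of ENSMOCG00000018516 were found in each of the 6 groups.

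The smallest sets were made of few animals. ENSMOCG00000008206 was at 9.98 in naive female replicate 1, at 10.39 in 24 h female replicate 10 and at 10.25 in 3 week female replicate 9, and its other 43 libraries, all males included, lay at or below 5.99 with a median of 5.03. Only 2 members took at least 50% of their sum of squares from 1 library, and it was the same library in both. In 24 h male replicate 2, ENSMOCG00000002225 was at 2.60 and ENSMOCG00000004195 at 3.60, while the other 5 males at 24 h lay at 9.62 to 10.86 and at 9.53 to 10.88. These genes and the further ones named below for their pairing were chosen for naming after their values had been seen.

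Most pairs of members were weakly correlated. Over the 4950 pairs of members, with group means removed and 46 libraries, the absolute correlation was under 0.3 in 87.8% and had a median of 0.14 (0.163 between eligible genes). The points share library preparation and the normalization, and all correlations here are descriptions. A small number of pairs followed nearly the same pattern. In 16 pairs, over 22 genes, r was at least 0.8, which is 0.323% of member pairs and 0.0742% of pairs of eligible genes. Considering every gene, the closest partner of a member had a median r of 0.727 (0.706 for eligible genes). It reached 0.9 for 22 of the 100 members, against 4.51% of eligible genes. That partner was itself a member for 13 of the 100.

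The pair with the highest r, ENSMOCG00000002225 and ENSMOCG00000004195 (r = 0.99, 0.97 without the 2 farthest libraries), had no gap of 1 in either gene. In several other tight pairs the same animals were split from the rest. ENSMOCG00000004642 and ENSMOCG00000000123 (r = 0.98, 0.99 in females, 0.98 in males) had the same 13 libraries above the gap and the same 33 below it. Below it ENSMOCG00000004642 was at 8.42 to 9.47 and ENSMOCG00000000123 at 5.87 to 7.01. In 11 libraries they were at 11 to 11.26 and at 8.46 to 8.82, and in the last 2, 24 h female replicate 2 and 3 week male replicate 4, at 11.97 to 12.15 and at 9.32 to 9.56. Both genes thus had the same 3 bands in the same animals, and the top band, of only 2 libraries, serves description. With at least 3 libraries on either side, the widest gap on the high side was 0.038 and 0.081, under the limit of 0.4. In 24 h animals the high side held 1 of 10 females and 1 of 6 males.

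ENSMOCG00000006061 and ENSMOCG00000001236 (r = 0.95) were both low in the same 9 libraries, at 0 to 3.30 and 0 to 3.83, and both high in the same 37, at 6.33 to 8.55 and 5.63 to 8.04. ENSMOCG00000004221 and ENSMOCG00000008285 (r = 0.86, 0.93 without the 2 farthest libraries) parted the libraries alike as well. Only the first of them had a separate intermediate level, and the bands below are its own; the second ran from 7.34 to 8.51 in the middle band and from 8.26 to 9.22 in the upper one. In 17 libraries the medians were 3.85 and 5.49, in 20 they were 7.39 and 7.70, and in 9 they were 8.66 and 8.69. The trio ENSMOCG00000005700, ENSMOCG00000001238 and ENSMOCG00000018411 (r of 0.88 to 0.93) was high together in 19 libraries, where the medians were 9.98, 6.98 and 6.90, against 6.45, 4.92 and 4.89 in the other 27.

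A second trio had the rarer state on the high side. ENSMOCG00000005976, ENSMOCG00000011807 and ENSMOCG00000006935 (r of 0.82 to 0.90) were above their gaps in the same 7 libraries, which were naive female replicates 2 and 6, 24 h female replicates 3 and 8, 3 week female replicate 4 and 24 h male replicates 1 and 5. There they lay at 9.44 to 9.86, 7.59 to 8.08 and 7.37 to 8.27, against medians of 4.38, 4.92 and 4.46 in the other 39. In these 7 libraries ENSMOCG00000008621 was never above 2.65, while over the other 39 it ran from 0 to 8.09, and its r with ENSMOCG00000005976 was -0.64.

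The pair ENSMOCG00000004350 and ENSMOCG00000006567 had a low state in females alone. ENSMOCG00000004350 was at 3.69 to 5.09 in 8 females, of which 2 were naive, 2 were paired for 24 h and 4 for 3 weeks, and at 8.77 to 10.89 in 21 females and all 17 males. In those 8 females ENSMOCG00000006567 was at 0 to 3.21, and in the other 38 libraries at 2.92 to 7.56, with 1 female (24 h) low in this gene alone. Their correlation was 0.94 in females and 0.23 in males, where no animal was on the low side. The males ran from 8.77 to 10.41 and from 5.18 to 7.21, with pooled SDs of 0.4997 and 0.556 against 2.44 and 2.56 in females. In the test described further on, males were higher by 1.50 (limma adjusted p = 0.0692) and by 1.41 (adjusted p = 0.104), and neither passed. ENSMOCG00000004350 passed with the replicate number as a block (1.72, limma adjusted p = 0.0485) and ENSMOCG00000006567 with the normalization position as a covariate (6.14, limma adjusted p = 0.0221). All naive and 3 week males had a position of 0.795 to 1.09, and all other libraries -0.232 to 0.419. Position and sex were thus nearly tied in those conditions, and 6.14 is not a difference seen between the levels of the sexes.

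Other members were opposed. ENSMOCG00000021410 was lower where ENSMOCG00000001370 was higher, in 3 bands that did not overlap. With ENSMOCG00000001370 at 0 to 4.80 (13 libraries) ENSMOCG00000021410 was at 11.05 to 11.42, with it at 7.15 to 9.42 (28 libraries) at 8.95 to 10.88, and with it at 9.79 to 10.39 (5 libraries) at 5.58 to 8.72. The upper gap of ENSMOCG00000001370 was 0.379, under the limit of 0.4, so its middle and upper bands, here and below, only serve description. The lowest band of ENSMOCG00000021410 held 2 females and 3 males, 1 from each male group. ENSMOCG00000011965 and ENSMOCG00000013748 had the lowest r of all pairs, -0.64 over the 46 libraries, -0.89 in females and -0.59 in males. ENSMOCG00000013748 was at 4.23 to 5.73 in 4 males and in no female, and ENSMOCG00000011965 was at 9.36 to 9.95 in those 4.

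**Figure D3:**
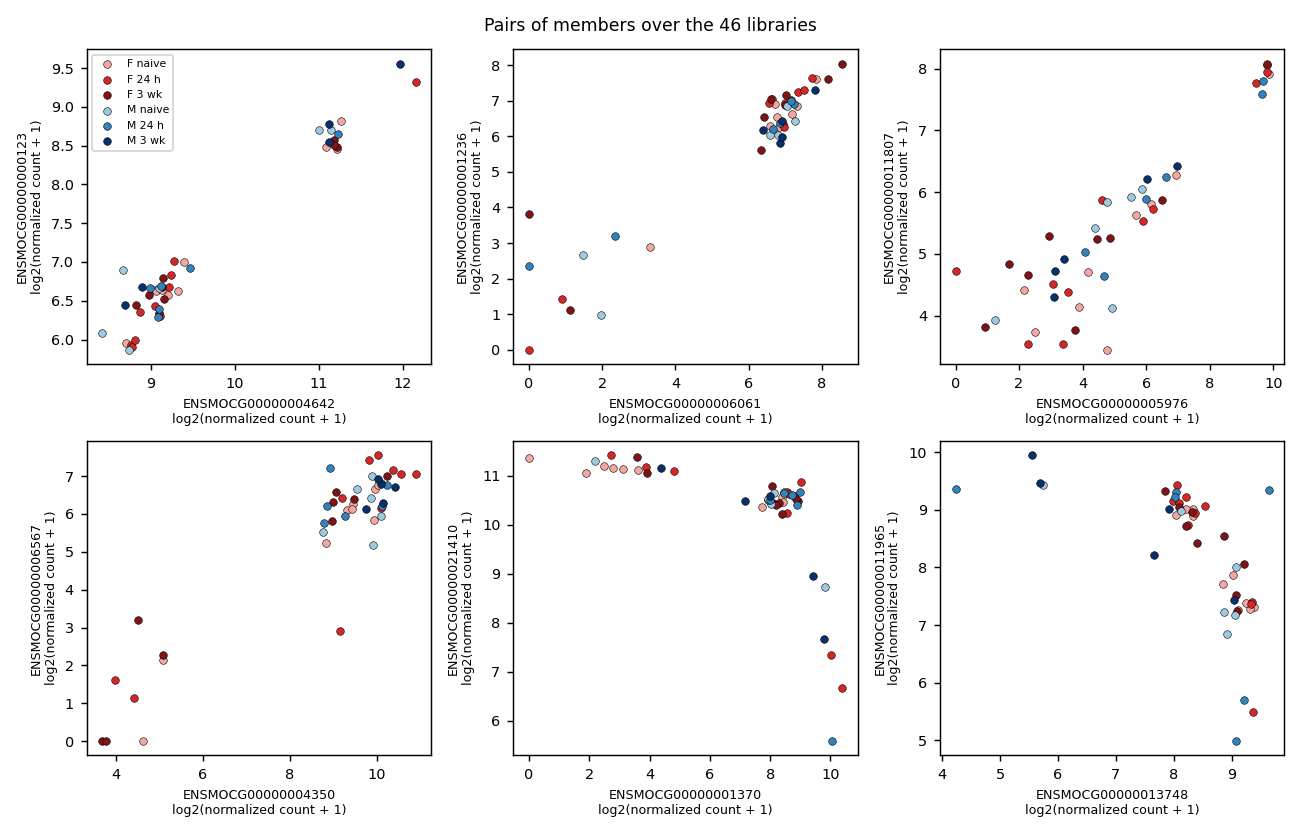
Pairs of members over the 46 libraries, both axes log2(normalized count + 1), 1 point per library, coloured by group. The upper panels show pairs that part the libraries into the same sets, and the lower left panel a pair that does so for all but 1 library. The lower middle and lower right panels show 2 opposing pairs.

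Clustering of the members by their correlation in females (average linkage, mean r of at least 0.5) left 35 members alone, put 55 in 22 sets of fewer than 5 genes and gave 2 sets of 5. The first set was ENSMOCG00000021810, ENSMOCG00000001370, ENSMOCG00000022410, ENSMOCG00000003735 and ENSMOCG00000015163. Its mean pairwise r was 0.72 in females, which the clustering used, and 0.34 in males, which it did not, and in males the lowest pair was at -0.18. In the 13 libraries with ENSMOCG00000001370 low, the medians of ENSMOCG00000021810, ENSMOCG00000022410 and ENSMOCG00000003735 were 4.66, 3.39 and 5.60, against 6.76, 8.16 and 7.95 in the 28 middle libraries and 7.67, 8.27 and 10.15 in the 5 highest. Of those 13 libraries, 6 were naive females, 3 were 24 h females, 2 were 3 week females and 2 were males.

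The second set was ENSMOCG00000007161, ENSMOCG00000011467, ENSMOCG00000018583, ENSMOCG00000005375 and ENSMOCG00000003294, with a mean pairwise r of 0.69 in females and 0.49 in males. In females its mean deviation from the group means went with the replicate number in the titles. Differences between the 10 numbers held 91.6% of its sum of squares within groups, where they held a median of 38.2% over eligible genes and 31.8% over members. If the number were unrelated to a gene, 34.6% would be held in females and 35.7% in males, from the number of libraries and numbers alone. For the first set it held 24.1% in females and 49.9% in males. The 11 females numbered 7 to 10 stood at 0.746 to 1.61 and the 18 numbered 1 to 6 at -1.83 to -0.044, and the ranges did not overlap. The 3 females of a number ran from 1.21 to 1.31 for number 7 and from 0.746 to 0.89 for number 8, but from -1.61 to -0.05 for number 3 and from -1.48 to -0.384 for number 1. The split between numbers 6 and 7 was chosen after the data had been seen. The labels do not say what the number stands for and name no batch.

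The levels of 2 of the 5 genes parted in the same way and those of the other 3 overlapped. ENSMOCG00000007161 was at 6.47 to 7.91 (median 6.98) in the females numbered 7 to 10 and at 3.42 to 5.96 (median 5.10) in those numbered 1 to 6. ENSMOCG00000011467 was at 6.70 to 7.31 against 3.56 to 6.01, and for ENSMOCG00000018583 the levels were 8.02 to 9.48 against 4.17 to 8.36. ENSMOCG00000005375 was at 6.64 to 8.70 against 3.63 to 6.98, and ENSMOCG00000003294 at 6.22 to 8.36 against 4.53 to 7.90. The males, whose numbers end at 6, ran from 3.35 to 6.63 in ENSMOCG00000007161, from 2.85 to 7.32 in ENSMOCG00000011467 and from 6.41 to 9.08 in ENSMOCG00000018583. In males the number held 36.0% of the set's sum of squares, and the set's deviation ran from -1.50 to 1.46. At least 60% of the sum of squares in females lay between numbers in 7 of the 100 members and in 717 of the 9826 eligible genes (7.30%), so a link of that size was not particular to the members. Those 7 included the opposed pair ENSMOCG00000013748 (71.5%) and ENSMOCG00000011965 (67.2%), whose r in females was -0.89. At least 85% did so in 3 of the 100 members, all of the second set, and in 50 of the 9826 eligible genes.

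**Figure D4:**
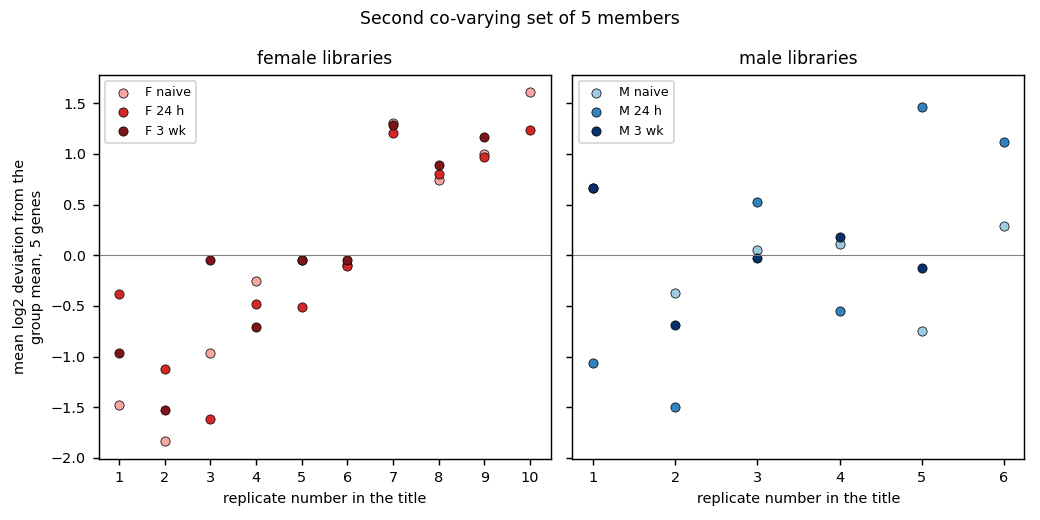
Mean log2 deviation from the group mean over the 5 genes of the second co-varying set, against the replicate number in the title, for the 29 female (left) and 17 male libraries (right), 1 point per library. Every female numbered 7 to 10 lies above 0 and every female numbered 1 to 6 below it, whereas males of all numbers lie between -1.50 and 1.46.

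The correlations of the members' levels with measures of the libraries were mostly weak. The median absolute r over the 100 members was 0.108 with the estimated depth, 0.094 with the position of a library between the normalization patterns and 0.110 with the number of genes listed at 0, and it was 0.126, 0.128 and 0.132 over the eligible genes. The largest absolute r of a member was 0.519, with the position. The first co-varying set had r = 0.129 with depth, -0.111 with the position and -0.28 with the number of genes at 0 over 46 libraries (-0.368 for the last in females). The second had 0.243, -0.063 and -0.257, and -0.502 with the position in males. Their part in the results was not tested.

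No member passed the test for a change with pairing. The spread by which the members were chosen enters the error of this test. Low counts of members, adjusted or not, therefore follow in part from the choice and are not read as a result about the genes. Each gene's log2 levels were fitted with limma over all 6 groups, p-values were adjusted by Benjamini-Hochberg over 14455 genes, and 9 comparisons were made, all of which take in naive animals or both sexes and so share libraries. After 24 h with a partner, 0 of the 100 members passed an adjusted p of 0.05 in females, where 0.104% of all genes tested did, and 0 in males, where 0.242% did. After 3 weeks, 0 members passed in either sex, where 0% of all genes did. Over both sexes 0 members passed at 24 h and 0 at 3 weeks, against 3.01% and 0% of all genes. The change of males set against that of females gave 0 members at 24 h and 0 at 3 weeks, where 0.0484% and 0% of all genes passed. Naive and 24 h males also differed in normalization pattern. Every 24 h comparison that takes in males, with its share of all genes, therefore mixes pairing with that pattern.

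At an unadjusted p under 0.05 the members' counts stayed at 1 to 5 in these 8 comparisons. In the order given they were 4 for females and 1 for males at 24 h, 5 and 1 at 3 weeks, 1 and 3 over both sexes and 1 and 2 for the difference between the sexes' changes. Over all genes the shares were 19.4% and 11.9%, 4.91% and 2.38%, 19.1% and 3.51%, and 9.04% and 3.14%. The fitted differences of the members were larger and their errors larger still, as follows in part from the choice by spread. At 24 h in females the members' median absolute difference was 0.437 with a median standard error of 0.615, and over all genes it was 0.109 with 0.0975. A difference of 1 log2 unit in the median member was therefore under 2 of its standard errors and not detectable at this number of animals.

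The lowest unadjusted p among the members at 24 h, in females and over both sexes, was that of ENSMOCG00000001370. It had medians of 3.38 in naive, 8.59 in 24 h and 8.19 in 3 week females, and 4 of 10, 7 of 10 and 7 of 9 were on the high side. Its 24 h difference was 2.85 log2 units (SE 1.09, limma adjusted p = 0.155) and its 3 week difference 2.68 (SE 1.12, adjusted p = 0.893), and neither passed. The females' levels ran from 0 to 8.45, from 2.74 to 10.39 and from 3.59 to 8.91, so the groups overlapped over most of their range.

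ENSMOCG00000021100 had the lowest unadjusted p of all members and comparisons, and it did not pass. In naive, 24 h and 3 week females it ran from 3.02 over a median of 5.06 to 9.05, from 2.76 over 4.23 to 9.25 and from 3.83 over 8.67 to 8.97. In naive males it ran from 4.48 over 7.46 to 8.92 and in 24 h males from 2.95 over 7.00 to 9.08. All 5 of the 3 week males were low, at 3.50, 3.49, 3.62, 3.00 and 3.37, whereas 5 of 9 females at 3 weeks were high. The 3 week change of males minus that of females was -5.62 log2 units (SE 1.594, limma p = 0.00105 unadjusted, adjusted p = 0.999).

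Between the sexes, over all conditions, 1 of the 100 members passed where 19.6% of all genes tested did. Here too a low count follows in part from the choice of members by their spread. The member that passed was ENSMOCG00000002783, the only one the test called in any comparison. It was lower in males by 1.75 log2 units (difference -1.75, SE 0.637, limma adjusted p = 0.0467). In females its lowest, median and highest levels were 2.48, 8.20 and 9.09 in naive animals, 3.81, 8.21 and 9.43 at 24 h and 7.83, 8.24 and 9.22 at 3 weeks. In males they were 1.74, 3.93 and 9.00 in naive animals and 2.60, 7.94 and 9.08 at 24 h, and the 3 week males stood at 7.94, 8.21, 3.14, 8.62 and 7.94. The gene was on the high side, above 7.6, in 8 of 10, 9 of 10 and 9 of 9 females and in 2 of 6, 4 of 6 and 4 of 5 males, and the sexes overlapped in each condition.

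The call rested on a narrow margin. Without 1 library at a time the adjusted p ran from 0.0188 to 0.0999 and missed 0.05 for 33 of the 46 libraries. At 24 h alone, where males and females share a normalization pattern, the difference was -1.44 (SE 1.07, adjusted p = 0.641), and 2 of all 14455 genes passed there, 0.0138%. Among the members, 14 had an unadjusted p under 0.05 between the sexes, against 32.9% of all genes. The members' differences between the sexes ran from -2.24 to 2.19 with a median of -0.02, their median absolute size was 0.363 against 0.0931 over all genes, and their median standard error 0.421 against 0.0668.

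**Figure D5:**
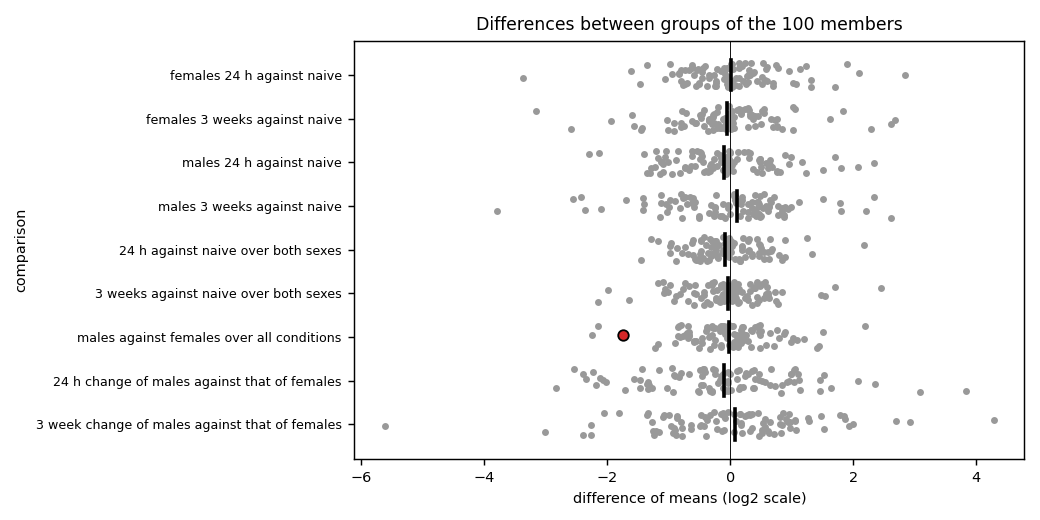
Fitted differences between groups (log2 scale) of the 100 members in the 9 comparisons, 1 point per member, with the median as a black bar and the member that passed the adjusted p of 0.05 in red. The medians lie near 0 in every row, the points spread over several log2 units to either side, and the red point, ENSMOCG00000002783 at -1.75 for males against females, is not the farthest from 0.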

How the data were processed

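Poly(A) RNA of 46 nucleus accumbens punches was made into unstranded libraries, per the labels' protocols. Per the submitters' processing notes the tools included fastp 0.14.1, Salmon 0.12 and DESeq2; neither genome build nor gene models were given in the sources used here. From the values, the 1 table the authors deposited holds log2 of a normalized count plus 1. Whole reads were not recovered (51.7% to 91.9% of the lowest values per library were whole to within 0.1 read), so no count model was used.

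Members and lists were chosen with earlier results of these data known. The log2 levels of the 14455 genes whose normalized counts averaged 10 or more were fitted with limma 3.58.1 (R 4.3.3), 1 mean per group, 40 residual degrees of freedom. The fit was also run on simulated data with normal residuals. Those lack the gaps of many members, so the fit was not checked for gapped levels. Correlations and SDs used Python 3.11.15. Each library is a separate animal per the design text, so p-values measure the spread between animals. Genes named were the 10 widest, 3 per co-varying set, those that passed, and 3 on either side of the boundary; 27 more were added after values were seen. Marker lists were not used, since 0 of the row identifiers matched the reference gene table. Reads of overlapping, antisense or near-identical genes could not be told apart.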

Additional observations from a re-analysis of the deposited data

Results flagged for a closer look

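In 37 cases a single library stood apart from its group in a named member, its gap to the nearest animal being a large part of the group's whole range. Chance flags about 1 in 20 groups, and 294 groups were looked at for 49 values. The genes were chosen for a wide spread within groups, and 27 were named after their values were seen, so many such libraries follow from the choice and their number is not read against that rate. The libraries were the lowest of their group in 24 cases and the highest in 13, and 20 libraries were involved. All levels are log2 of a normalized count plus 1.

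Libraries on the low side came first in number. 24 h male replicate 2 was at 2.60 in ENSMOCG00000002225, 3.60 in ENSMOCG00000004195 and 1.02 in ENSMOCG00000011969, where the other 24 h males were at 6.17 to 8.28. 24 h male replicate 4 was at 5.58 in ENSMOCG00000021410, 4.23 in ENSMOCG00000013748, 4.60 in ENSMOCG00000015992, 9.56 in ENSMOCG00000013067 and 0 in ENSMOCG00000014098, whose other 24 h males were at 6.24 to 6.75. Naive male replicate 3 was at 8.72 in ENSMOCG00000021410, 5.73 in ENSMOCG00000013748, 5.35 in ENSMOCG00000004221 and 1.24 in ENSMOCG00000005976. Naive male replicate 1 was at 2.19 in ENSMOCG00000001370 and naive male replicate 2 at 3.34 in ENSMOCG00000022410.

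ENSMOCG00000002783, the member called between the sexes, was at 3.81 in 24 h female replicate 5 and at 3.14 in 3 week male replicate 3. ENSMOCG00000012558 was at 2.25 in naive female replicate 4 and at 3.69 in 24 h female replicate 3. Naive female replicate 2 was low in both genes of a pair, at 3.30 in ENSMOCG00000006061 and 2.88 in ENSMOCG00000001236. ENSMOCG00000018516 was at 4.86 in 24 h female replicate 8 and ENSMOCG00000011965 at 5.49 in 24 h female replicate 6. ENSMOCG00000013067 was at 5.76 in 24 h female replicate 2 and at 3.17 in 3 week female replicate 8.

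On the high side, 24 h female replicate 2 was at 12.15 in ENSMOCG00000004642 and 9.32 in ENSMOCG00000000123, and 24 h male replicate 4 at 11.23 and 8.66 in the same genes. ENSMOCG00000008206 was at 9.98 in naive female replicate 1, 10.39 in 24 h female replicate 10 and 10.25 in 3 week female replicate 9. ENSMOCG00000007048 was at 8.16 in 24 h female replicate 10 and 7.95 in 3 week female replicate 4. The latter library was also at 8.08 in ENSMOCG00000011807 and 8.10 in ENSMOCG00000006935. ENSMOCG00000019890 was at 8.03 in 3 week female replicate 5 and ENSMOCG00000005132 at 7.20 in 24 h male replicate 1.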

How the results depend on the processing

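In all 8 comparisons that involve pairing, 0 members passed under every alternative run (pseudocounts, filters, scalings, array weights, replicate block, normalization position, libraries numbered 1 to 6, and each library left out). Between the sexes the count of 1 became 0 without a filter, 0 with libraries numbered 1 to 6 only and 0 at 24 h alone (both chosen after seeing the data), 4 with array weights (ENSMOCG00000011210, ENSMOCG00000012558, ENSMOCG00000013748 and ENSMOCG00000017692, with ENSMOCG00000002783 lost at an adjusted p of 0.058), and 0 to 3 without 1 library; the cause was not tested. The call of ENSMOCG00000002783 remained without naive female replicate 3 or 7, 24 h female replicate 5, 3 week female replicate 4, 6 or 8, naive male replicate 2 or 5, 24 h male replicate 2, 3, 5 or 6, or 3 week male replicate 4, and was lost without any 1 of the other 33 libraries. Its difference kept its sign throughout, from -2.98 with the normalization position as a covariate (adjusted p = 0.292) to -1.42. With the position as a covariate the 1 member called was instead ENSMOCG00000006567 (6.14, limma adjusted p = 0.0221), and 1.65% of all genes passed. Position and sex were nearly tied in naive and 3 week animals, so the sizes fitted in this setting cannot be read as differences between the sexes. Rescaling to equal totals changed the genes called between the sexes from 1482 higher and 1354 lower in males to 1897 and 962.

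The replicate numbers were not shown to pair the animals: same-numbered libraries of different groups correlated at -0.221 to 0.295 over all tested genes, in means of -0.0705 to 0.0705. With the replicate number as a block, 2 members passed between the sexes, ENSMOCG00000004350 (1.72, limma adjusted p = 0.0485) and ENSMOCG00000018583 (0.94, adjusted p = 0.0077), and ENSMOCG00000002783 had an adjusted p of 0.0928. The block changed no other call.

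Of the 100 members, 53 were kept with a mean of at least 20, 64 with a mean of at least 100 and 66 when the spread was a median absolute deviation, where more or fewer genes compete or single libraries weigh less. Other rules kept 83 to 99, and leaving out 1 library 95 to 100. The mean r in males ran from 0.163 to 0.410 for the first co-varying set and from 0.410 to 0.517 for the second without 1 library. Depth limits the low side of the members: in the lowest of them the median library held an estimated 2.95 reads.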
